A study of Mus musculus with 12 samples.

Results

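Immediate early genes are switched on within minutes of a signal at the cell surface, without new protein synthesis. The 10 described here are the AP-1 subunit genes Fos, Fosb, Fosl2, Jun, Junb and Jund, the AP-1 partner gene Atf3, the zinc finger genes Egr1 and Egr2, and the orphan nuclear receptor gene Nr4a1. Each was found by its gene name in the scanner files and represented by its brightest probe that is not a control. They are 10 of 21329 genes named on the array, and all 10 were among the 15537 features tested. Of these, 9 carry the same name in the files, and Jund stands there under its older symbol Jund1. Every one of the 10 probes was well above background on 12 of 12 arrays and saturated on 0.

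AP-1 is a dimer. A Jun protein pairs with itself, with a Fos protein or with an ATF protein, and the pair chosen sets whether the target gene is switched on or off. In T cells the antigen receptor acts through calcium and MAP kinases to raise Fos, Jun, EGR and NR4A genes, and AP-1 then binds DNA together with NFAT. Egr2 is known as a brake on T-cell activation, Nr4a1 as a reporter of recent antigen receptor signalling, and Atf3 as a gene of the stress response that mostly represses. The same genes also respond to growth factors, heat and the enzymatic digestion of tissue.

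The cells were mouse regulatory T cells (Treg), a Foxp3-dependent class of CD4 cells that holds immune responses in check. All mice were C57BL/6 reporter animals. MC38, a colon carcinoma line of that strain, was grown under the skin for 2 weeks, and tumours were pooled and digested before cells were stained and sorted on CD45, low CD11b, CD3 and CD4. VERT-X mice, which report IL-10 by EGFP, gave IL10- and IL10+ tumour Treg within a CD25+CD120b+/low gate. FoxP3-EGFP mice, which report Foxp3, gave total tumour Treg by EGFP, and mice of the same reporter strain without a tumour gave spleen Treg by EGFP. Each of these 4 groups has 3 arrays, which the series describes as 3 experiments per population. Total tumour and spleen Treg therefore share genotype and selection by EGFP, whereas the VERT-X groups differ from both in genotype and gate. The digestion and the sort on CD45, low CD11b, CD3 and CD4 are given above for the tumours.

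Of the 12 arrays, between 42.2% and 65.4% of probes were well above background, and the 75th percentile of the signal ran from 92.8 to 608. The level of a gene below is log2 of the processed signal minus that percentile, so 0 is the 75th percentile of the array, and 1 unit is a doubling. The arrays sit on 4 slides: the 3 spleen arrays share 1 slide with total tumour replicate 3, and the 3 IL10- arrays share another with IL10+ replicate 2. Tnfrsf18 and Cd3d, the brightest of the T cell and Treg markers, were well above background on all 12 arrays. The Foxp3 probe was well above background on 6 of 6 VERT-X arrays and on 0 of 6 FoxP3-EGFP arrays, so it does not check the identity of the latter. Spleen arrays held more of the B cell list (9 markers, summed linear level 50.1 to 95.6, against 2.68 to 5.38 in the tumour groups). Tumour arrays held more of the macrophage and monocyte list (17 markers, summed level 390 to 915, against 44.9 to 111 in spleen), with Apoe and Lyz2 the brightest of it. Fewer cells of a type and less RNA per cell cannot be told apart in such bulk samples.

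Promoters of 4 of these genes are shown because Atf3, Fosl2 and Egr2 differed between tumour and spleen Treg in all 3 tumour groups, and Fos is the model of the class. They are RefSeq sequences on GRCm38.p6, 250 bases before to 50 after the start site, written 5′ to 3′ on the strand of the gene. Capitals mark the matches to 3 of the 6 motifs searched on both strands: the CRE half-site TGACG, bound by CREB and ATF proteins, the EGR site GCGNGGGCG, and the CArG box bound by SRF.
Atf3, chr1:191183284-191183583, minus strand: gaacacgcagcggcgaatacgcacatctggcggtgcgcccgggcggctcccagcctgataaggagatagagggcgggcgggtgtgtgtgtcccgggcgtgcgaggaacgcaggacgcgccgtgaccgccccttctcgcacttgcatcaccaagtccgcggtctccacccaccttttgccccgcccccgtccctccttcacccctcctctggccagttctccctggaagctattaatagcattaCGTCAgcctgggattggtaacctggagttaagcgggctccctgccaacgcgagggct
Fosl2, chr5:32136222-32136521, plus strand: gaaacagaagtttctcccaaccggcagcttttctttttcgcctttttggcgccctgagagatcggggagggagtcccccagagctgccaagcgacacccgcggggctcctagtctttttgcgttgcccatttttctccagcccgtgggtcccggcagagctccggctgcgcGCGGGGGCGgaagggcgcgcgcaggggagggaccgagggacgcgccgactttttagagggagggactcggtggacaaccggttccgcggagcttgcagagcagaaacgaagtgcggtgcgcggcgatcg
Egr2, chr10:67537619-67537918, plus strand: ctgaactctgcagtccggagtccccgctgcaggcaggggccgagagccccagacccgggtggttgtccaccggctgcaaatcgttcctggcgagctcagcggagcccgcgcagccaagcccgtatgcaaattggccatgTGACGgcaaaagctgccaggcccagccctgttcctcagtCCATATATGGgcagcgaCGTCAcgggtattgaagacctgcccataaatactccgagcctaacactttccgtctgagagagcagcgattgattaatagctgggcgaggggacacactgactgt
Fos, chr12:85473640-85473939, plus strand: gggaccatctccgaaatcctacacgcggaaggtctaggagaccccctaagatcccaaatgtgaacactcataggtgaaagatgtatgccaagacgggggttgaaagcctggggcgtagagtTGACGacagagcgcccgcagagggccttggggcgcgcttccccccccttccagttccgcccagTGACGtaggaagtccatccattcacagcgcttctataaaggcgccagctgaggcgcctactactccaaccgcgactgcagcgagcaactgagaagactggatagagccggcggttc
RefSeq promoters were matched for 9 of the 10 genes, 5 start sites of Egr2 among them. The CRE half-site, a motif added after these promoters had been read, was found in 8 of their 13 promoters, which belong to 6 of the 9 genes. It is held by 20.8% of 32851 RefSeq promoters of that length, and by at least 1 promoter of 23% of genes. The first base of the match lies at -7 in Atf3, at -129 and -66 in Fos and at -111 and -55 in Egr2. The EGR site was found in Fosb, Fosl2 and Nr4a1, against 5.55% of all promoters, and begins at -79 in Fosl2. The CArG box, held by 1.63% of all promoters, was found in Egr2 alone of the 9 genes. Of the 5 Egr2 promoters 4 hold one, but 3 of these overlap and share the same box, so that there are 2 distinct boxes. The box begins at -72 in the promoter shown. The full CRE TGACGTCA, which contains the half-site, the AP-1 site TGACTCA and the NR4A site AAAGGTCA were found in 0 of the 9 genes, against 1.79%, 5.2% and 1.51% of all promoters. A match is a stretch of letters in this window and was not tested as a binding site.

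The first comparison asks how Treg of the tumour differ from Treg of a tumour-free spleen within 1 reporter strain. In total tumour Treg, Atf3 was 35.6-fold, Fosl2 7.69-fold, Jun 2.58-fold, Fos 2.23-fold and Junb 1.72-fold higher than in spleen Treg, and Egr2 was 2.85-fold lower. Fosb, Jund, Egr1 and Nr4a1 did not pass the test. By limma, with a threshold of 0.05 on the adjusted p, 6 of 10 genes were thus called, 5 of them higher and 1 lower, where 42.3% of all features were called, 22% of them higher and 20.3% lower (both as shares of all features tested). The median difference of the 10 genes was 0.93 on the log2 scale, against -0.01 over all features. Values of the groups did not overlap for 7 of the 10 genes, against 65.7% of all features.

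The VERT-X tumour groups were set against the same 3 spleen arrays, so the 3 comparisons are not independent, and these also differ in genotype and gate. In IL10+ tumour Treg 5 of 10 genes were called, with Atf3, Fosl2, Fosb and Jun higher and Egr2 lower, where 50.8% of all features were called (23.9% higher, 26.9% lower). In IL10- tumour Treg 4 of 10 were called, with Atf3, Fosl2 and Fosb higher and Egr2 lower, where 49% were called (24.3% higher, 24.7% lower). Groups did not overlap for 6 of 10 genes in the first case and 7 of 10 in the second, against 57.8% and 61.4% of all features. The shares of genes called in either direction are near those of all features, so that the counts do not set these 10 genes apart; the sizes and directions of single genes are given below.

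**Figure D1:**
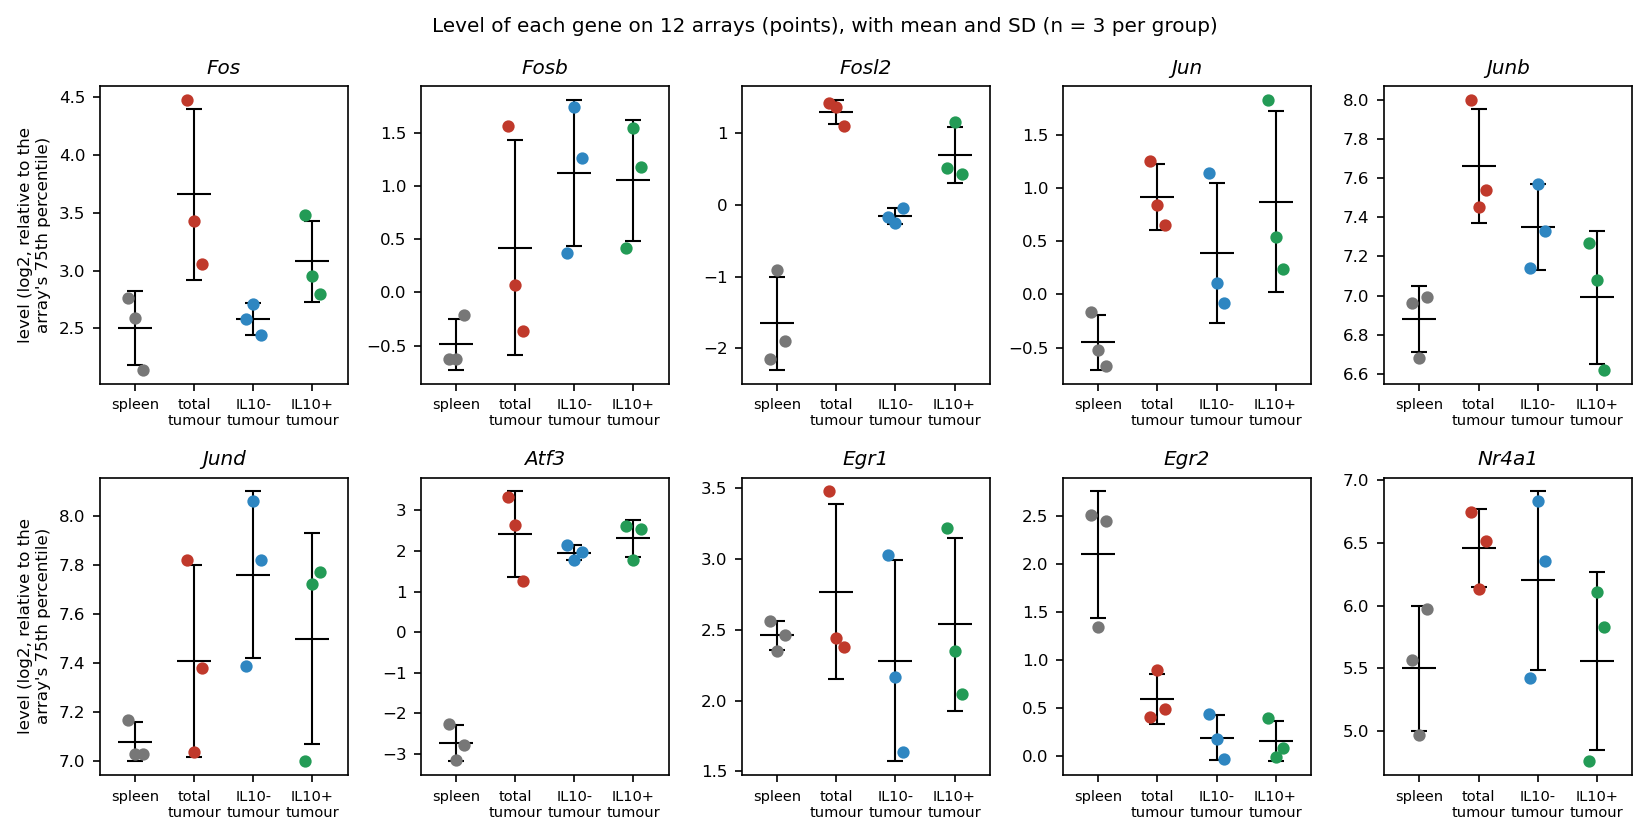
Level of each gene on each array (points; log2, relative to the array's 75th percentile), with the group mean and SD (bars, n = 3). The vertical axes differ between genes. Atf3 and Fosl2 are above spleen on every tumour array, and Egr2 is below spleen on every tumour array.

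Among the Fos subunits, which bind DNA only as partners of a Jun protein, Fosl2 showed the widest separation. Its level was 1.42, 1.37 and 1.10 in total tumour Treg, 0.51, 1.15 and 0.43 in IL10+ and -0.17, -0.25 and -0.04 in IL10- tumour Treg, against -2.14, -0.91 and -1.89 in spleen Treg. Every tumour array lay above every spleen array, and the order of the group means was total tumour, IL10+, IL10-, spleen. The ranges of total tumour and IL10+ Treg met, while those of the other neighbours in that order did not. The difference from spleen was 2.94 ± 0.31 (log2, SE; adjusted p = 6.76e-05) in total tumour, 2.34 ± 0.31 (adjusted p = 0.000183) in IL10+ and 1.49 ± 0.31 (adjusted p = 0.00284) in IL10- tumour Treg. On the slide that holds both groups, total tumour Treg (1 array) exceeded spleen Treg (3 arrays) by 2.75. With slide as a block, only the difference of total tumour Treg stayed past the threshold (2.75, adjusted p = 0.00814), whereas those of IL10+ (1.86, adjusted p = 0.0944) and IL10- Treg (0.56, adjusted p = 0.658) did not. For total tumour against spleen Treg the blocked difference is the within-slide one, from 1 total tumour array, and is not a separate check. No slide holds spleen arrays together with VERT-X arrays, so the blocked differences of those groups run through total tumour and IL10+ arrays.

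Fosl2 has a second, dimmer probe, well above background on 9 of 9 tumour arrays and on 0 of 3 spleen arrays. The files place the brighter probe at chr5:32433832-32433891 and the dimmer one at chr5:32429296-32429355 (mm8), both under NM_008037. Both probes were called higher in every tumour group than in spleen. For the dimmer one the folds rest on spleen readings that were not well above background (mean level -5.31). These folds were 14-fold in total tumour (mean -1.50, adjusted p = 0.000922), 32-fold in IL10+ (mean -0.31, adjusted p = 0.000125) and 27.9-fold in IL10- Treg (mean -0.51, adjusted p = 0.000178). Between the tumour groups the probes pointed opposite ways. Relative to total tumour Treg, the brighter probe read -0.60 in IL10+ and -1.45 in IL10- Treg, and the dimmer one 1.19 and 0.99. None of these 4 values was past the threshold. The order of the tumour groups for Fosl2 therefore depends on the probe.

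Fos, the subunit that gave the family its name, was called higher in total tumour than in spleen Treg. Its level was 4.48, 3.43 and 3.06 in total tumour Treg, 3.48, 2.95 and 2.80 in IL10+ and 2.58, 2.71 and 2.44 in IL10- tumour Treg, against 2.76, 2.59 and 2.14 in spleen Treg. All total tumour and IL10+ arrays lay above spleen, and the IL10- arrays lay inside the range of spleen. Fos differed from spleen by 1.16 ± 0.34 in total tumour Treg (adjusted p = 0.0212), 0.58 in IL10+ (adjusted p = 0.183) and 0.08 in IL10- Treg (adjusted p = 0.868). The difference was 0.74 (adjusted p = 0.0564) without total tumour replicate 1 and 0.98 (adjusted p = 0.077) without spleen replicate 3. The call was also lost with no filter on dim probes (adjusted p = 0.0532) and in a fit of these 2 groups alone (adjusted p = 0.0515). With slide as a block, and equally within the shared slide, the difference was 0.56 (adjusted p = 0.381).

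Fosb, a Fos subunit best known from neurons, was higher in both VERT-X groups than in spleen. Its level was 0.37, 1.74 and 1.26 in IL10- and 0.42, 1.54 and 1.18 in IL10+ tumour Treg, against -0.63, -0.63 and -0.21 in spleen Treg. In total tumour Treg it read 1.56, 0.07 and -0.36, a spread that overlapped every other group. Fosb differed from spleen by 1.61 ± 0.51 in IL10- (adjusted p = 0.025) and 1.54 ± 0.51 in IL10+ Treg (adjusted p = 0.0294), and 0.91 (adjusted p = 0.181) in total tumour Treg. Neither call held without spleen replicate 1 or 2, nor without replicate 2 or 3 of its own tumour group (adjusted p from 0.0651 to 0.0927 in these 8 cases). Both were also lost with no filter on dim probes (adjusted p = 0.0537 and 0.0618). Blocking on slide turned the sign, to -0.69 in IL10- (adjusted p = 0.727) and -0.26 in IL10+ Treg (adjusted p = 0.873).

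Of the Jun subunits, Jun is the strongest activator and can bind as a pair with itself. Its level was 1.25, 0.84 and 0.65 in total tumour, 1.83, 0.54 and 0.24 in IL10+ and 1.14, 0.11 and -0.08 in IL10- tumour Treg, against -0.17, -0.52 and -0.67 in spleen Treg. All 9 tumour arrays lay above the 3 spleen arrays, and the 3 tumour groups overlapped one another. Jun differed from spleen by 1.37 ± 0.43 in total tumour (adjusted p = 0.0282) and 1.32 ± 0.43 in IL10+ Treg (adjusted p = 0.0269), and 0.84 in IL10- Treg (adjusted p = 0.131). The first call did not hold when total tumour replicate 1 (1.20, adjusted p = 0.094) or 2 (1.40, adjusted p = 0.0637) or spleen replicate 2 (1.33, adjusted p = 0.0701) or 3 (1.26, adjusted p = 0.083) was left out. The second was lost without IL10+ replicate 1 (0.84, adjusted p = 0.076) and without spleen replicate 2 (1.29, adjusted p = 0.0664) or 3 (1.21, adjusted p = 0.0791). Neither passed with slide as a block (1.10, adjusted p = 0.146, and 1.89, adjusted p = 0.112) or with no filter on dim probes (adjusted p = 0.0642 and 0.0589), nor did the second in a fit of its 2 groups alone (adjusted p = 0.0592).

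Junb, an antagonist of Jun at many promoters and a subunit that Treg of the effector type depend on, differed by less. Its level was 8.0, 7.45 and 7.54 in total tumour, 7.14, 7.57 and 7.33 in IL10- and 7.27, 7.08 and 6.62 in IL10+ tumour Treg, against 6.96, 6.68 and 6.99 in spleen Treg. IL10+ and spleen Treg overlapped, as did the neighbours total tumour with IL10- and IL10- with IL10+. Junb differed from spleen by 0.78 ± 0.22 in total tumour (adjusted p = 0.0164), 0.47 in IL10- (adjusted p = 0.101) and 0.11 in IL10+ Treg (adjusted p = 0.695). The first did not pass when total tumour replicate 1 (0.62, adjusted p = 0.0667) or spleen replicate 2 (0.69, adjusted p = 0.0567) was left out, nor with slide as a block (0.66, adjusted p = 0.146). It also missed the threshold with quantile normalization (0.61, adjusted p = 0.0837), with normexp and quantile normalization (0.51, adjusted p = 0.0744), in the deposited value table (0.41, adjusted p = 0.207) and with no filter on dim probes (adjusted p = 0.0546). A second Junb probe gave 0.76 in total tumour Treg (adjusted p = 0.00737) and passed in IL10- Treg as well (0.65, adjusted p = 0.0129).

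Jund is the Jun subunit that resting cells express throughout and that changes least on stimulation. Its level was 7.39, 8.06 and 7.82 in IL10-, 7.0, 7.72 and 7.77 in IL10+ and 7.82, 7.04 and 7.38 in total tumour Treg, against 7.17, 7.03 and 7.03 in spleen Treg. No tumour group passed the test against spleen. The nearest was IL10- Treg, whose 3 arrays all lay above spleen (0.68 ± 0.27, adjusted p = 0.0582), and which passed without IL10- replicate 1 (0.86, adjusted p = 0.0342) or IL10+ replicate 1 (adjusted p = 0.0298). With slide as a block that difference was -0.09 (adjusted p = 0.94).

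Atf3 showed the largest difference of the 10 genes. Its level was 3.34, 2.64 and 1.27 in total tumour, 2.62, 1.78 and 2.54 in IL10+ and 2.14, 1.77 and 1.97 in IL10- tumour Treg, against -2.26, -3.16 and -2.79 in spleen Treg. The lowest tumour array lay far above the highest spleen array, and the 3 tumour groups overlapped. The difference from spleen was 5.16 ± 0.47 (95% interval 4.11 to 6.20, adjusted p = 3.1e-05) in total tumour, 5.05 ± 0.47 (adjusted p = 2.35e-05) in IL10+ and 4.70 ± 0.47 (adjusted p = 4.24e-05) in IL10- Treg. In total tumour Treg it stood at place 354 by p among the 15537 features. Within the shared slide, and equally with slide as a block, the difference was 4.01. With slide as a block all 3 differences stayed past the threshold (4.01, adjusted p = 0.00185; 3.63, adjusted p = 0.0139; 3.82, adjusted p = 0.0339). The probe lies at chr1:192871283-192871342 (mm8), in NM_007498 by the files.

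**Figure D2:**
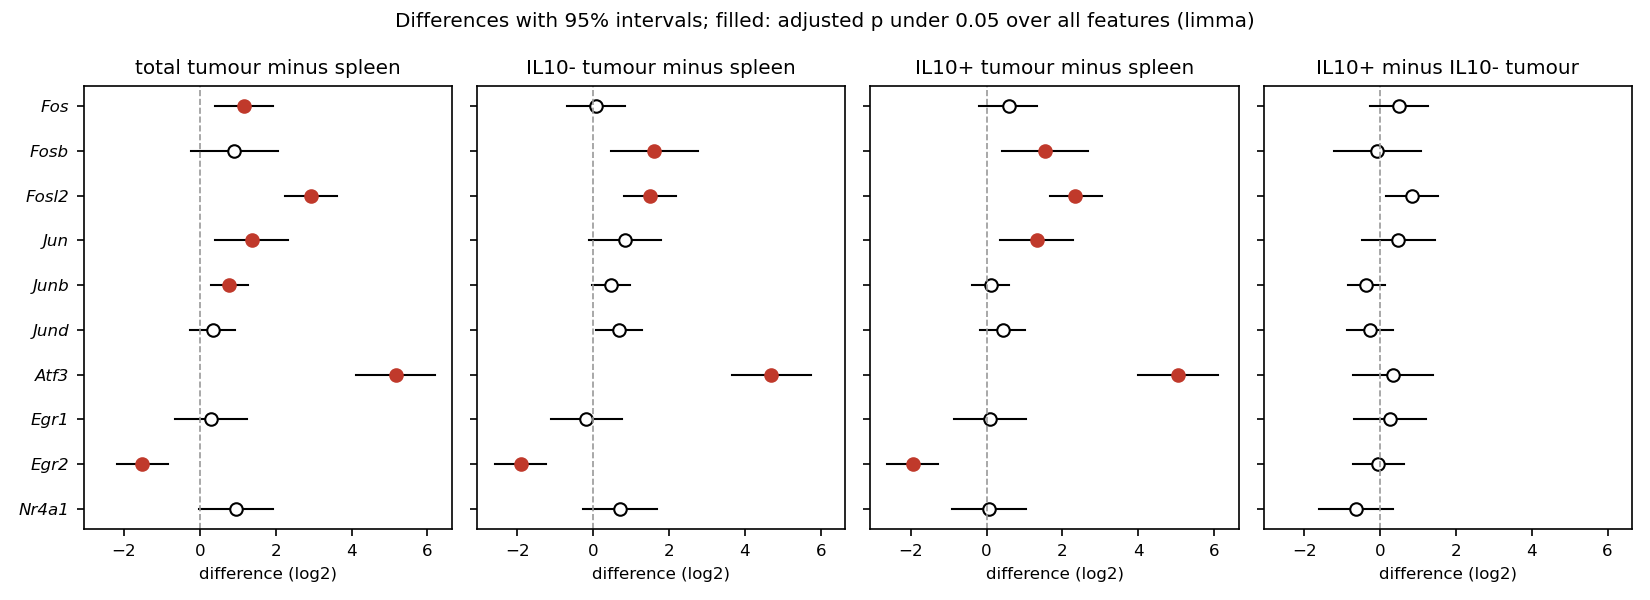
Difference in level (log2) with its 95% interval for each gene, for the 3 tumour groups against spleen Treg and for IL10+ against IL10- tumour Treg. Filled points passed an adjusted p under 0.05 over all features; Atf3, Fosl2 and Egr2 did so in all 3 comparisons with spleen and 0 genes did so between the IL10 fractions.

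The EGR genes parted. Egr1, the member that responds fastest to MAP kinase signals, was 3.48, 2.44 and 2.38 in total tumour, 3.22, 2.35 and 2.05 in IL10+ and 3.03, 2.17 and 1.64 in IL10- tumour Treg, against 2.56, 2.35 and 2.46 in spleen Treg. All groups overlapped, and spleen had the narrowest spread (SD 0.10, against 0.61 to 0.71 in the tumour groups). Against spleen it read 0.31 in total tumour (95% interval -0.64 to 1.25), 0.08 in IL10+ and -0.18 in IL10- Treg, none past the threshold (adjusted p from 0.6 to 0.88).

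Egr2 was the only one of the 10 genes called lower in tumour. Its level was 0.40, 0.89 and 0.49 in total tumour, 0.39, -0.01 and 0.08 in IL10+ and 0.44, 0.17 and -0.03 in IL10- tumour Treg, against 2.51, 1.34 and 2.45 in spleen Treg. Every spleen array lay above all 9 tumour arrays, and no difference between tumour groups passed the test. The difference was -1.51 ± 0.30 in total tumour (adjusted p = 0.00298), -1.95 ± 0.30 in IL10+ (adjusted p = 0.000499) and -1.91 ± 0.30 in IL10- Treg (adjusted p = 0.000617). Within the shared slide, and equally with slide as a block, it was -1.61 in total tumour Treg. Under a slide block the sizes were similar but none passed (-1.61, adjusted p = 0.056; -1.87, adjusted p = 0.117; -1.67, adjusted p = 0.236). The Egr2 probe (chr10:66937367-66937426, mm8) is spotted 10 times per array, and 1 spot on IL10- replicate 1 that the scanner marked as an outlier (signal 3810, against 605 for the dimmest) was left out.

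Nr4a1, the NR4A gene most used as a readout of antigen receptor signals, was 6.74, 6.13 and 6.51 in total tumour, 5.42, 6.83 and 6.35 in IL10- and 4.76, 6.11 and 5.83 in IL10+ tumour Treg, against 5.57, 4.97 and 5.97 in spleen Treg. Total tumour arrays all lay above spleen, IL10- arrays overlapped both, and IL10+ arrays overlapped spleen and lay just below total tumour Treg. The difference from spleen was 0.96 ± 0.44 in total tumour (adjusted p = 0.107), 0.70 in IL10- (adjusted p = 0.212) and 0.06 in IL10+ Treg (adjusted p = 0.915), so none was called. The first passed in a fit of its 2 groups alone (adjusted p = 0.0373) and with array weights (0.79, adjusted p = 0.0179). With array weights the IL10- difference passed as well (0.73, adjusted p = 0.031). The IL10+ difference changed sign in 7 of 23 alternatives.

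The second comparison asks whether Treg that make IL-10 in the tumour differ from those that do not, within VERT-X mice. None of the 10 genes was called by limma between IL10+ and IL10- tumour Treg, where 0.0515% of all features were called, and 1 had an unadjusted p under 0.05. That gene was Fosl2, higher in IL10+ Treg by 0.85 ± 0.31 (95% interval 0.16 to 1.53, adjusted p = 0.978 by limma). All 3 IL10+ values lay above all 3 IL10- values. Fos also did not overlap (0.50, interval -0.26 to 1.26). These 2 of 10 compare with 7.4% of all features whose groups did not overlap. The dimmer Fosl2 probe gave 0.20.

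The other genes differed by -0.64 to 0.48 between the fractions. Nr4a1 had the widest margin downward (-0.64, interval -1.62 to 0.34), followed by Junb (-0.36, interval -0.85 to 0.13) and Jund (-0.26, interval -0.86 to 0.34). Jun (0.48, interval -0.48 to 1.44), Atf3 (0.35, interval -0.70 to 1.40) and Egr1 (0.26, interval -0.68 to 1.21) leaned upward, and Fosb (-0.07, interval -1.22 to 1.07) and Egr2 (-0.04, interval -0.71 to 0.63) lay near 0. All of these intervals include 0. The intervals of Fosb, Atf3, Jun, Egr1 and Nr4a1 also include a doubling or a halving. The fit did not pair arrays by replicate number, and no label says that a number marks a shared pool. Differences between same-numbered arrays had 1 sign in 3 of 3 for 7 of the 10 genes, against 36.5% of the features with a value there. Replicate 2 of IL10+ shares a slide with the 3 IL10- arrays, and there Fosl2 differed by 1.30, Fos by 0.37 and Nr4a1 by -0.09.

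The VERT-X fractions were also set against total tumour Treg, a comparison in which mouse strain and gate change together with the fraction and cannot be told apart from it. Here 0 of 10 genes were called in IL10+ Treg, where 0.2% of all features were called, and 0 of 10 in IL10- Treg, where 0.148% were. At an unadjusted p under 0.05 the counts were 1 (Junb, -0.67, adjusted p = 0.178) and 2 (Fosl2, -1.45, adjusted p = 0.0906, and Fos, -1.08, adjusted p = 0.179). Of the 10 genes, 8 lay below total tumour Treg in each fraction, with a median difference of -0.33 in IL10+ and -0.43 in IL10- Treg. Groups did not overlap for 3 genes in IL10+ (Junb, Egr2, Nr4a1) and 2 in IL10- Treg (Fosl2, Fos), against 23.1% and 27.7% of all features. Fosl2 in IL10- Treg passed without spleen replicate 2, which changes the estimate of spread and not the difference (adjusted p = 0.0406).

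The 10 genes did not vary together from array to array. Total tumour replicate 1 stood high for most of them: the mean standardised level over the 10 genes was 1.26 there, against 0.25 and 0.15 on the other arrays of that group and -0.93 to 0.32 on the remaining arrays. It was the highest of its group for all but Egr2. In the VERT-X groups, replicate 1 of both fractions had the highest Jun and Egr1 of its group and the lowest Fosb, Jund and Nr4a1. These 2 arrays lie on different slides and have the highest 75th percentile of the signal of the 12 (485 in IL10- and 608 in IL10+). Whether signal strength has a part in that pattern was not tested.

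**Figure D3:**
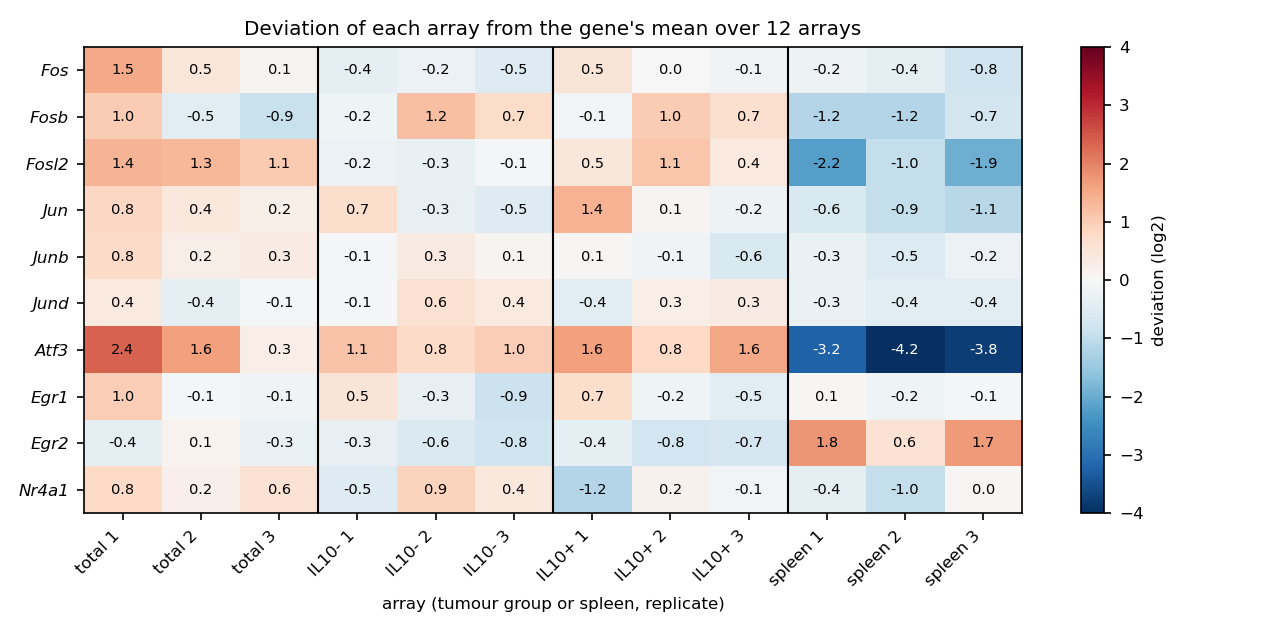
Deviation of each array from the gene's mean over 12 arrays (log2; red above, blue below). Total tumour replicate 1 is above the mean for 9 of 10 genes, the spleen arrays are lowest for Atf3 and highest for Egr2, and replicate 1 of both VERT-X fractions is high for Jun and Egr1 and low for Nr4a1.

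After the group means were taken out, deviations over the 12 arrays correlated most for Jun with Egr1 (Pearson r = 0.91), Jund with Nr4a1 (0.84) and Fosb with Jund (0.82). They ran against each other for Fosl2 with Egr2 (-0.78) and Jun with Nr4a1 (-0.71). The 12 points share slides and signal strength, and these values are a description. Among 12578 other genes, the level most like the mean standardised level of the 10 genes over 12 arrays was that of Spty2d1 (r = 0.954), followed by Aebp2 (0.907), Hbs1l (0.906), Tmem30a (0.904) and Arih1 (0.901). For deviations from the group means the most alike were Spty2d1 (0.938), Klf2 (0.88), Tent5c (0.88), Rhob (0.851) and Ap1g2 (0.848).

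Close relatives of these genes moved in both directions in total tumour against spleen Treg. Of 27 relatives tested (further AP-1, ATF, CREB, MAF, EGR, NR4A and C/EBP genes), 15 were called higher and 3 lower, with a median difference of 0.98. The smallest p-values belonged to Jdp2, a repressor that pairs with Jun (3.77, adjusted p = 2.43e-06), Crem (3.74, adjusted p = 2.82e-06) and Fosl1. Fosl1, the Fra-1 subunit, was higher by 5.28 in total tumour Treg (means -0.03 and -5.32, adjusted p = 4.18e-06). That size rests on spleen readings none of which was well above background. Batf, the AP-1 factor of effector T cells, did not pass (0.12, adjusted p = 0.731).

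Among the EGR and NR4A relatives, Egr3 was lower and Nr4a2 and Nr4a3 were higher in total tumour than in spleen Treg. Egr3 differed by -1.51 (adjusted p = 0.0042). In IL10- tumour Treg, where it was not well above background on any array, it was at least 4.79-fold lower than in spleen (adjusted p = 8.64e-05), and 1 of 3 IL10+ arrays measured it (adjusted p = 0.000112). Egr4 was well above background on 3 of 12 arrays and did not pass. Nr4a2 was higher in total tumour (2.33, adjusted p = 0.00131), IL10- (2.12, adjusted p = 0.00178) and IL10+ Treg (1.62, adjusted p = 0.00731). Nr4a3, which 1 of 3 spleen arrays measured, was higher in total tumour (2.28, adjusted p = 0.0295) and IL10- Treg (2.31, adjusted p = 0.0243) and did not pass in IL10+ Treg (1.39, adjusted p = 0.136).

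Of 40 other immediate early genes, 24 were called higher and 3 lower in total tumour than in spleen Treg (median 1.23). Ier3, a survival gene of the NF-kB response, was higher by 6.4 in total tumour Treg (adjusted p = 1.22e-05). That size rests on a spleen mean of -4.53 (SD 0.92), from readings that were not well above background. Ccn1, a matrix protein gene of fibroblasts and endothelium that 1 of 3 spleen arrays measured, was higher by 8.43 (adjusted p = 2.42e-05), a size that rests on a spleen mean of -4.73 (SD 1.80) mostly from arrays that did not measure it. Errfi1, an inhibitor of the EGF receptor, was higher by 2.57 (adjusted p = 2.65e-05). Of 18 genes of the T-cell receptor response, 10 were higher and 2 lower (median 1.85), with Bhlhe40 (3.24) and Gzmb (7.10) higher and Dgka, which dampens receptor signals, lower (-1.59). Of 28 genes of the signalling steps upstream, 7 were higher and 10 lower (median -0.40), with Map2k3 (1.99) and Mapk3 (1.06) higher and Mapk11 (-1.56) lower. Of 14 heat shock and tissue dissociation genes, 11 were higher and 0 lower (median 0.99), and Hsp90aa1 (1.61), Hspd1 (0.83) and Hspa5 (0.90) had the smallest p-values.

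**Figure D4:**
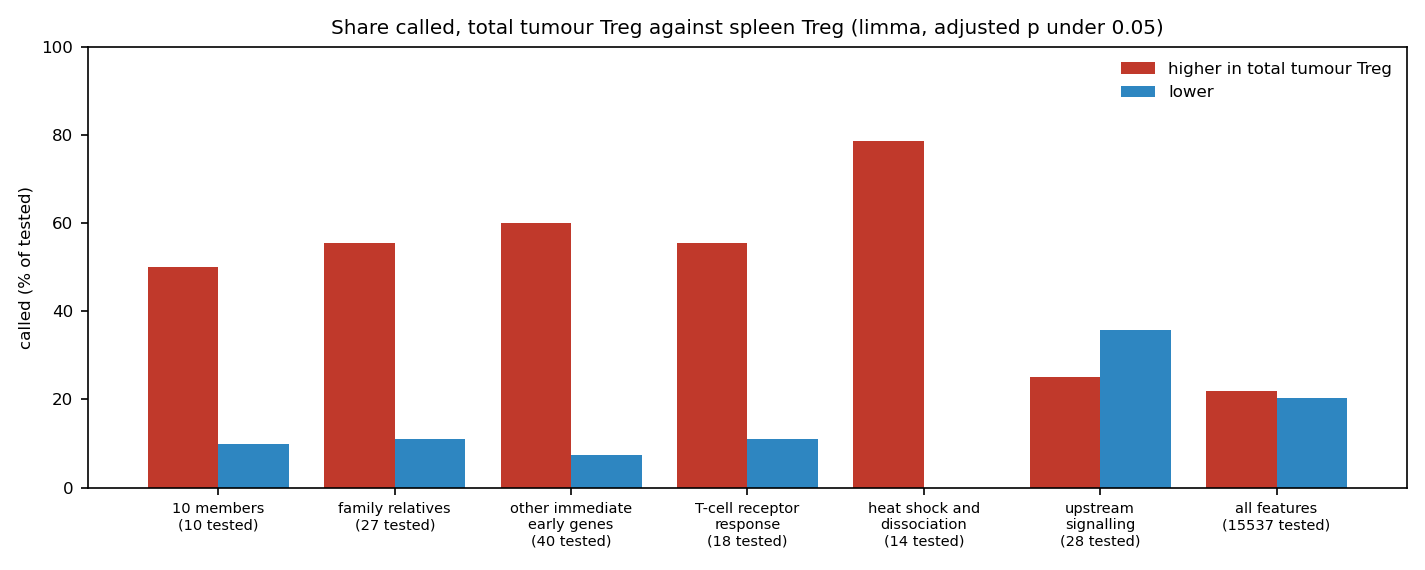
Percent of tested genes called higher (red) or lower (blue) in total tumour than in spleen Treg, for the 10 genes, for 5 gene lists and for all 15537 features. The lists other than upstream signalling have 50% to 78.6% higher, against 22% of all features. The 10 genes and the lists were chosen with earlier results of these data known, so these shares are a description.

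Markers of other cells moved along with these differences. In total tumour against spleen Treg, 15 of 17 macrophage and monocyte markers were higher and 1 lower, 9 of 14 fibroblast and endothelial markers were higher and 1 lower, and 9 of 9 B cell markers were lower. The summed level of the 14 fibroblast and endothelial markers was 263 to 445 in the tumour groups and 114 to 195 in spleen. The brightest of the 14, Thy1, had similar means in IL10- (7.05), IL10+ (6.71), total tumour (7.12) and spleen Treg (7.08). The sums therefore do not show how far the next brightest lay apart. Sparc had a mean of 4.66 in total tumour and -0.78 in spleen Treg. Dcn had 5.75 and -3.73, with 1 of 3 spleen arrays well above background. The 6 erythroid and platelet markers tested, Hba-a1 and Pf4 the brightest, summed to 6.52 to 35.5 in the tumour groups and 312 to 782 in spleen, with 0 higher and 3 lower. Hba-a1 had a mean of 0.80 in total tumour and 9.03 in spleen Treg. Pf4 went the other way (2.60 and -0.26) and was not called. Of the smaller lists, 1 of 7 dendritic cell markers was higher and 3 lower, 0 of 4 neutrophil markers were called, and 1 of 6 plasma cell markers was higher and 3 lower. Of 9 CD8 T and NK cell markers 0 were higher and 4 lower, and of 3 epithelial markers 2 were higher and 0 lower. Of 11 T cell and Treg markers 2 were higher and 0 lower. Macrophages, fibroblasts and B cells express Fos, Jun, Atf3 or Egr genes as well, and the part of such cells in the differences from spleen was not tested. These marker levels were measured after the sort, which for the tumours was on CD45, low CD11b, CD3 and CD4. Spleen arrays had all 9 B cell markers well above background on 3 of 3 arrays, whereas Cd79a, Pax5, Cr2 and Fcer2a were so on 0 of the 9 tumour arrays. The macrophage markers Csf1r and Adgre1 were well above background on all 12 arrays, in spleen as well as in tumour Treg. Their means were higher in total tumour (2.89 and 1.95) than in spleen Treg (1.74 and 0.50). Trem2, of the same list, was well above background on 9 of 9 tumour arrays and 0 of 3 spleen arrays. The heat shock and dissociation list moved too, and the labels describe digestion for the tumours. Its part in the differences was not tested. Between IL10+ and IL10- tumour Treg, 0 genes of these lists were called, and their medians lay between -0.16 and 0.16 for the 5 gene lists. Some lists of other cells leaned towards IL10+ Treg: 16 of 17 macrophage and monocyte markers (median 0.42), 10 of 14 fibroblast and endothelial markers (0.43), 7 of 9 CD8 T and NK cell markers (0.41) and 4 of 6 erythroid and platelet markers (0.61) had a positive difference. So did 3 of 4 neutrophil (0.3) and 3 of 3 epithelial markers (0.29). Other lists did not lean that way: 5 of 9 B cell (0.07), 3 of 6 plasma cell (0.07) and 3 of 7 dendritic cell markers (-0.1) were positive. None of them was called, and their part in the differences between the fractions was not tested. Relative to total tumour Treg, the heat shock and dissociation list had a median of -0.47 in IL10+ and -0.66 in IL10- Treg, with 0 and 1 of 14 genes called lower.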

How the data were processed

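The data are 12 one-colour Agilent arrays of RNA from sorted mouse Treg, 3 per group. Per the file headers, the deposited spot intensity was made with Agilent Feature Extraction 9.5.3.1: background-subtracted and corrected within an array, with no scaling between arrays and probes placed on mm8. The series value table holds deposited log10 values and served as an alternative; their normalization is not given in sources used here. Per the labels, cRNA carried biotin, while the headers describe a 1-channel scan.

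Control spots and spots marked as outliers were dropped, replicate spots of a probe were averaged, and log2 processed intensity minus the array's 75th percentile was analysed. A gene was represented by its brightest probe and kept if well above background on at least 3 arrays. All 12 arrays entered 1 limma fit (version 3.58.1, R 4.3.3, with version 1.17.8 of data.table; two-sided, Benjamini-Hochberg over 15537 features within a comparison), called at an adjusted p under 0.05. Names came by accession, symbol or synonym from RefSeq (GRCm38.p6). The steps were tested on simulated data. The bound "at least N-fold", given for Egr3, sets the brighter group's mean against the lowest signal well above background, or the dim probe's own if higher, per array. It leaves out the spread of the readings. The 23 alternatives comprise normalizations, filters, probe choice, spot flags, slide and replicate blocks, array weights, 2-group fits and 12 fits without 1 array. Figures used matplotlib 3.10.9 in Python 3.11.15.

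The 10 genes and all lists were chosen with earlier results of these data known. Named beside the 10 were the 3 smallest p-values per list among called genes in the first pair of comparisons, Egr3, Egr4, Nr4a2, Nr4a3, Fosl1 and Batf, and the 5 most alike genes. Other cell types whose lists were summed were dendritic cells, neutrophils, plasma cells, CD8 T and NK cells, epithelial cells and erythroid cells. The CRE half-site was added after the promoter sequences had been read.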

Additional observations from a re-analysis of the deposited data

How the results depend on the processing

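Of 1380 differences recomputed (10 genes, 6 comparisons, 23 alternatives), 1267 kept their direction and their side of the threshold, 40 lost it, 16 gained it, 2 reversed, and 55 that were never called changed sign. Atf3 passed in all 3 comparisons with spleen under every alternative, and Egr2 under 22 of 23 in each, the exception being slide as a block. The 2 reversals are Fosb with slide as a block, -0.26 in IL10+ and -0.69 in IL10- Treg against spleen. With slide as a block the numbers of genes called against spleen were 2 in total tumour, 1 in IL10+ and 1 in IL10- Treg. Of all features 21.7%, 15.3% and 7.74% were then called, against 42.3%, 50.8% and 49% in the main fit. Without a filter on dim probes, which raised the number of features tested to 27652, the numbers of genes called were 3, 3 and 3. The shares of all features called were 17.2%, 22.9% and 21.7% there. With array weights 7 genes were called in IL10- Treg against spleen, where 64.4% of all features were called. In IL10- against total tumour Treg the weights gave 3 (Fos, Fosl2, Jun), where 19.6% of all features were called, against 0.148% in the main fit. With normexp and quantile normalization 1 (Fosl2) was called in IL10- against total tumour Treg, where 0.669% of all features were called. Leaving out 1 array at a time gave 3 to 6 genes in total tumour, 3 to 5 in IL10+ and 3 to 6 in IL10- Treg against spleen. It gave 0 to 1 in IL10- against total tumour Treg and 0 in the other comparisons. In these fits 32.7% to 46.1% of all features were called in total tumour Treg against spleen. The shares were 43.7% to 52.7% in IL10+ and 41.3% to 53.3% in IL10- Treg against spleen. The lowest count in total tumour Treg came without its replicate 1, and the lowest in IL10+ Treg without spleen replicate 2; the highest in IL10- Treg came without IL10+ replicate 1, when Jun and Jund joined. Same-numbered arrays correlated in their deviations from the group means by -0.24 to 0.43 (median -0.02, 18 pairs), against -0.57 to 0.30 (median 0.01, 36 pairs) for other pairs, and between IL10- and IL10+ Treg by 0.41, 0.43 and -0.24. Not every pair was over 0.1 and no label says that a number marks a shared pool, so the numbers were not taken to pair the samples. Differences between same-numbered IL10+ and IL10- arrays had 1 sign in 3 of 3 for 7 of the 10 genes and for 36.5% of all features with a value on these 6 arrays. With the replicate number as a block, 6, 4 and 5 genes were called against spleen and 0 in the other comparisons. Of all features 41.1%, 50% and 48.3% were called against spleen in that fit. Keeping the spots marked as outliers, an alternative chosen after seeing the data, changed no call. The 3 arrays per group limit the precision.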
